A study of Homo sapiens with 18 samples.

Results

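The 36 genes described here act in G2 and mitosis: they include mitotic kinases, cyclins, kinesins, spindle checkpoint genes and kinetochore genes. They were taken by gene symbol, matched through the Entrez gene ID, from the 25343 human genes in each library's table, and all 36 had enough counts to enter the fit of 14074 genes. RNA was sequenced from 18 xenograft tumours of HCT116, a human colon carcinoma line grown in mice, in which PTDSS2 had been knocked out. Tumours came from hosts given vehicle (0.5% methylcellulose), 10 mg/kg of DS55980254 or 30 mg/kg of DS55980254 by mouth, with 6 libraries per group, and were taken 24 hours later. Every group carried the PTDSS2 knockout, so no comparison with PTDSS2-proficient cells can be made. The title of the series concerns inhibition of PTDSS1, the other phosphatidylserine synthase, in cancers that lack PTDSS2. The labels do not say whether the libraries of a group came from separate mice, nor how many knockout clones were used, so each p-value measures the spread between these libraries.

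Cells enter mitosis when cyclin B and CDK1 form an active kinase, which Aurora and Polo-like kinases help to switch on. Chromosomes are then condensed and attached to the spindle through kinetochores, and the spindle checkpoint holds back the anaphase promoting complex until every chromosome is attached. Most of these genes are transcribed in a wave that peaks in G2 and mitosis, through the factors FOXM1 and MYBL2 acting with the MuvB complex at a promoter element named the cell cycle genes homology region (CHR), often beside CCAAT boxes bound by NF-Y. In a bulk tumour, fewer cells in G2 and mitosis cannot be told apart from less of these RNAs per cell.

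Promoters of 6 members are shown first, because the CHR is what many of these genes share in sequence. MAD2L1, KIF23, KIF11 and BUB1B had lower levels at 10 mg/kg (unadjusted p under 0.05), while PLK1 and CCNB1 had fold changes nearer 0. These 6 are examples and do not show how the CHR relates to the fold changes. Each stretch runs from position -120 to position 30 relative to the RefSeq gene start (GRCh38.p14), on the gene's own strand, in lower case. Capitals mark TTTGAA, the core of the CHR, and CCAAT, or their reverse complements TTCAAA and ATTGG.
MAD2L1, chr4:120066819-120066968, minus strand: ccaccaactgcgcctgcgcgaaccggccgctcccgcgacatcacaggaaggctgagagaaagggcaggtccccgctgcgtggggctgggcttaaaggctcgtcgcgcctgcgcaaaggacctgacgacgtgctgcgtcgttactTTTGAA
KIF23, chr15:69414229-69414378, plus strand: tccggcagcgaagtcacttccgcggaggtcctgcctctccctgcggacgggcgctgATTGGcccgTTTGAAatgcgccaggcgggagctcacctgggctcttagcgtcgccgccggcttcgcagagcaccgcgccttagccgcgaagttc
KIF11, chr10:92593010-92593159, plus strand: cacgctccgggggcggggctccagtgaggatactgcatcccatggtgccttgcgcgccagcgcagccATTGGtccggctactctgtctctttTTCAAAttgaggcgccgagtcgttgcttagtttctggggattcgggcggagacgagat
BUB1B, chr15:40160949-40161098, plus strand: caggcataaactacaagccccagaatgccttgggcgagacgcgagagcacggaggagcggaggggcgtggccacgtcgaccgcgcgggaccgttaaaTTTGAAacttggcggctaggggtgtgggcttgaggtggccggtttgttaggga
PLK1, chr16:23678769-23678918, plus strand: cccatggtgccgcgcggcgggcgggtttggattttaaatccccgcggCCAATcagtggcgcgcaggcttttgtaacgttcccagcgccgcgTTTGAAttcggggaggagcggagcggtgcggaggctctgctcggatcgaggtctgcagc
CCNB1, chr5:69167030-69167179, plus strand: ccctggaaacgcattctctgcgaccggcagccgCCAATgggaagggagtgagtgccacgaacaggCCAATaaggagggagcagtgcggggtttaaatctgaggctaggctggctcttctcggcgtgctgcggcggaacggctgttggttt
MAD2L1, a spindle checkpoint gene, held TTTGAA after its start and no CCAAT box in this stretch. KIF23, KIF11 and PLK1 held 1 TTTGAA and 1 CCAAT box each, on either strand, and BUB1B held 1 TTTGAA and no CCAAT box. CCNB1, which encodes cyclin B1, held 2 CCAAT boxes and no TTTGAA.

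RefSeq windows that run from 250 bases before to 50 bases after the start were at hand for 30 of the 36 genes; FOXM1, TPX2, AURKA, TTK, BIRC5 and UBE2C had no entry. Some genes had more than 1 window, and a gene counted if any of its windows held a match. TTTGAA on either strand was found in 20 of these 30 genes (66.7%) and in 52 of 102 other G2 and mitosis genes (51.0%). It was found in 1 of 26 G1 to S and replication genes (3.85%) and in 18.2% of all 27305 genes with a window. CCAAT was found in 23 of 30 (76.7%), in 66 of 102 (64.7%), in 17 of 26 (65.4%) and in 39.7% of all these genes. Both stood in the same window in 16 of 30 (53.3%), in 33 of 102 (32.4%), in 1 of 26 (3.85%) and in 7.26% of all these genes. A match describes letters in a window and shows no binding. Members lower at 10 mg/kg at an unadjusted p under 0.05 stood on both sides. CDK1, BUB1B, MAD2L1, CENPF, KIF11, KIF23 and TOP2A held TTTGAA, while BUB1, CENPE and KIF2C did not. The 20 members with TTTGAA had a median log2 fold change of -0.29 at 10 mg/kg against vehicle, and the 10 without it had -0.23. At 30 mg/kg against vehicle the medians were -0.11 for members with it and -0.08 for members without it.

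Library depth was uneven. Counts assigned to human genes totalled 3435435 to 8538793 in 17 libraries and 433989 in 10 mg/kg replicate 2, where the 36 genes together held 990 counts, against 11136 to 30838 counts in the other 17. Across all genes tested, that library's mean correlation with the others was 0.73, against 0.94 to 0.95 for each of the rest. The summed human-assigned signal of 8 fibroblast markers, of which 2 were tested, ran from 73.3 to 336 CPM (counts scaled to library size) at 10 mg/kg, against 62.8 to 109 CPM in vehicle tumours, and that of 7 leukocyte markers, 2 of them tested, from 10.1 to 72.7 CPM against 8.09 to 13.5 CPM. The same sums at 30 mg/kg were 73.1 to 92.7 CPM for fibroblast markers and 7.90 to 13.4 CPM for leukocyte markers. The fibroblast gene DCN was at 0 in every vehicle library. Of 6 endothelial markers 1 was tested, and their sum ran from 3.45 to 122 CPM at 10 mg/kg and from 4.62 to 19.7 CPM at 30 mg/kg, against 3.66 to 11.5 CPM in vehicle tumours. The medians of these sums lay closer together. In vehicle, 10 mg/kg and 30 mg/kg tumours they were 91.1, 90.6 and 87.7 CPM for fibroblast markers. For leukocyte markers they were 10.1, 12.3 and 10.3 CPM, and for endothelial markers 5.24, 7.33 and 6.82 CPM. Colon carcinoma epithelial markers, of which 7 of 8 were tested, summed to 5381 to 7149 CPM in vehicle tumours, 4246 to 7516 CPM at 10 mg/kg and 5706 to 7215 CPM at 30 mg/kg. The part of depth and of marker levels in the results was not tested, and results are also given without 10 mg/kg replicate 2 where that changes a call. PTDSS1, the target named in the series title, averaged 76.8 ± 4.94 CPM in vehicle tumours, while tumours given 10 mg/kg averaged 64.7 ± 5.45 CPM and those given 30 mg/kg 67.9 ± 4.54 CPM (SD, 6 libraries each). Its log2 fold change was -0.23 ± 0.09 at 10 mg/kg (edgeR adjusted p = 0.379) and -0.18 ± 0.09 at 30 mg/kg (edgeR adjusted p = 0.62). The PTDSS2 signal averaged 8.75 ± 2.30 CPM in vehicle tumours, while tumours given 10 mg/kg averaged 9.43 ± 2.32 CPM and those given 30 mg/kg 7.91 ± 3.36 CPM; with no PTDSS2-proficient sample beside them, these values are no check of the knockout.

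The 36 genes were well expressed in vehicle tumours. Per transcript length, on the deposited TPM scale, the median member had a vehicle mean of 62.5 TPM, against 21.1 TPM for all 14074 genes tested. CDC25B, a phosphatase that activates CDK1, was the most abundant at 160.2 ± 12.4 TPM in vehicle tumours, followed by UBE2C at 152 ± 17.9 TPM, CENPF at 146 ± 17.9 TPM, CCNB1 at 138 ± 20.4 TPM and PLK1 at 138 ± 14.2 TPM (SD, n = 6 each). Each of these 5 differed from the next by less than its SD. MAD2L1 and CDK1 stood mid-list at 63.7 and 61.4 TPM, and CENPA, AURKA and CDC25C were lowest at 18.7, 18.7 and 13.2 TPM. AURKA is uncertain, because the processed pseudogene AURKAP1 drew 132 summed counts in vehicle tumours beside 542 for AURKA.

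**Figure D1:**
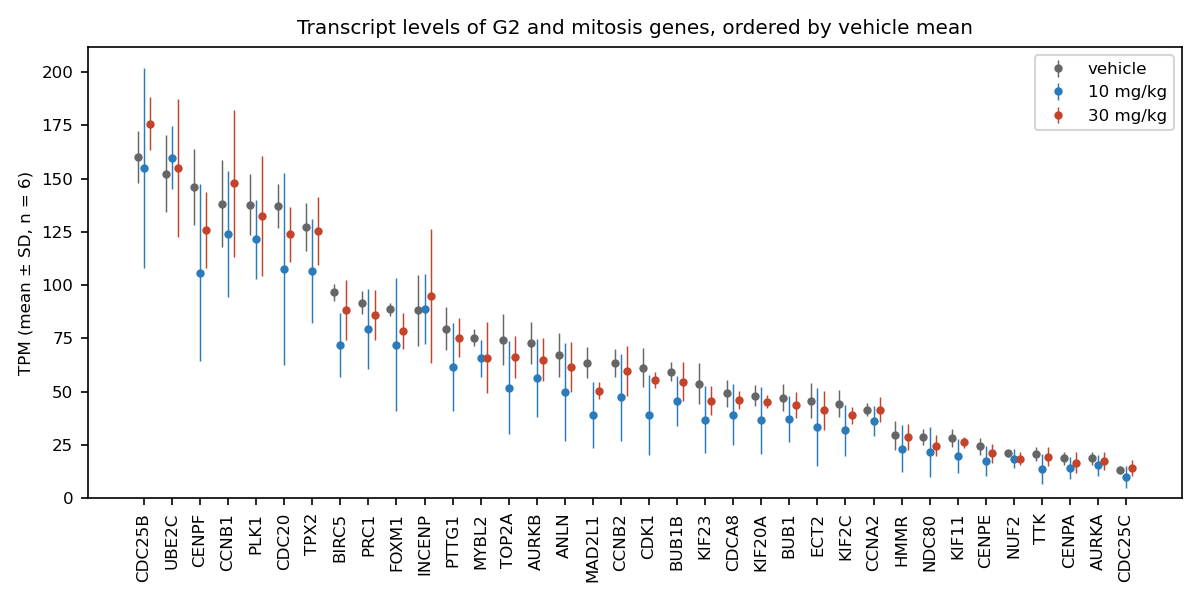
Mean TPM of each of the 36 genes, ordered by the vehicle mean, with vehicle, 10 mg/kg and 30 mg/kg side by side; bars span 1 SD over 6 libraries. CDC25B led at 160.2 TPM in vehicle tumours and CDC25C was lowest at 13.2 TPM.

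At 10 mg/kg most of the genes had slightly lower fitted levels than in vehicle tumours. Of the 36, 33 had a negative log2 fold change, against 51.2% of all genes tested, and the median log2 fold change was -0.25 (range -0.60 to 0.12), against -0.01 for all genes. No single gene passed the threshold: edgeR's quasi-likelihood test with Benjamini-Hochberg adjustment over all 14074 genes called 0 of 36 (adjusted p under 0.05), against 0.469% of all genes called in either direction. At an unadjusted p under 0.05, 12 of 36 were lower and 0 higher, against 4.08% of all genes lower. These were CDK1, BIRC5, BUB1, BUB1B, MAD2L1, TTK, CENPE, CENPF, KIF11, KIF23, KIF2C and TOP2A. DESeq2 (1.13% of all genes called), limma-voom (0.462%) and limma-voom with sample weights (1.67%) each called 1 member, MAD2L1. Without 10 mg/kg replicate 2, edgeR called 1 of 36, again MAD2L1, against 0.855% of all genes, and the median was -0.19 with 33 below 0 (51.3% of all genes). At an unadjusted p under 0.05, 12 of 36 were again lower, against 4.49% of all genes.

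At 30 mg/kg the shift was in the same direction and smaller. The median log2 fold change against vehicle was -0.09 (range -0.32 to 0.14) and 29 of 36 genes were lower, against 50.2% of all genes. Again 0 of 36 passed in edgeR, against 0.618% of all genes in either direction, and MAD2L1 alone reached an unadjusted p under 0.05, against 3.72% of all genes lower. DESeq2 (1.27% of all genes called), limma-voom (0.76%) and limma-voom with sample weights (2.24%) also called 0. Omitting both 10 mg/kg replicate 2 and 30 mg/kg replicate 5, a choice made after seeing the data, gave a median of -0.15 with 32 of 36 lower (50.1% of all genes). The calls stayed at 0, against 1.51% of all genes. Then 9 genes had an unadjusted p under 0.05, all lower, against 5.45% of all genes lower. These were FOXM1, MYBL2, BIRC5, MAD2L1, CENPF, KIF23, KIF2C, PRC1 and CDC20. The omitted 30 mg/kg library was the highest of its group for 22 of the 36. Leaving it out lowers the 30 mg/kg mean of those genes by construction, so the larger number is no added support.

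Between the doses most of the genes stood slightly higher at 30 mg/kg, with none past the threshold. In 30 mg/kg tumours against 10 mg/kg tumours the median log2 fold change was 0.19, with 33 of 36 higher (50.9% of all genes), and CDK1, BIRC5 and KIF11 were higher at an unadjusted p under 0.05 (1.66% of all genes higher). None passed in edgeR, where 0 of all genes passed (0%) and 3.52% had an unadjusted p under 0.05, and DESeq2 and both limma-voom fits called 0 of the 36 as well. Omitting 10 mg/kg replicate 2 and 30 mg/kg replicate 5 gave a median of 0.06, with 25 of 36 higher (50.8% of all genes). CDK1 alone then had an unadjusted p under 0.05 (1.83% of all genes higher), with 0 called. The omitted 10 mg/kg library was the lowest of its group for 29 genes, and the omitted 30 mg/kg library the highest for 22. Leaving them out brings the doses together by construction, so no conclusion is drawn from the smaller median.

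Over both doses the genes stood below vehicle. The mean of the dose groups against vehicle gave a median log2 fold change of -0.18 (range -0.46 to 0.12) with 32 of 36 lower, against 51% of all genes. In edgeR 0 of 36 passed, against 0.931% of all genes in either direction, and 6 were lower at an unadjusted p under 0.05 (CDK1, BIRC5, MAD2L1, KIF23, KIF2C and TOP2A), against 4.6% of all genes lower. DESeq2 (1.97% of all genes called) and limma-voom (1.14%) called MAD2L1, and limma-voom with sample weights (4.24%) called MAD2L1 and BIRC5. Without 10 mg/kg replicate 2, edgeR called MAD2L1, against 1.97% of all genes. With 30 mg/kg replicate 5 omitted as well, it called MAD2L1 and BIRC5, against 2.44% of all genes. At an unadjusted p under 0.05, 15 of 36 were then lower, against 6.42% of all genes. The omitted 30 mg/kg library was the highest of its group for 22 of the 36, BIRC5 included. Leaving it out lowers the treated mean of those genes by construction, so the larger counts are no added support. All comparisons with vehicle share the same 6 vehicle libraries, so their values are given side by side and not as independent evidence.

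**Figure D2:**
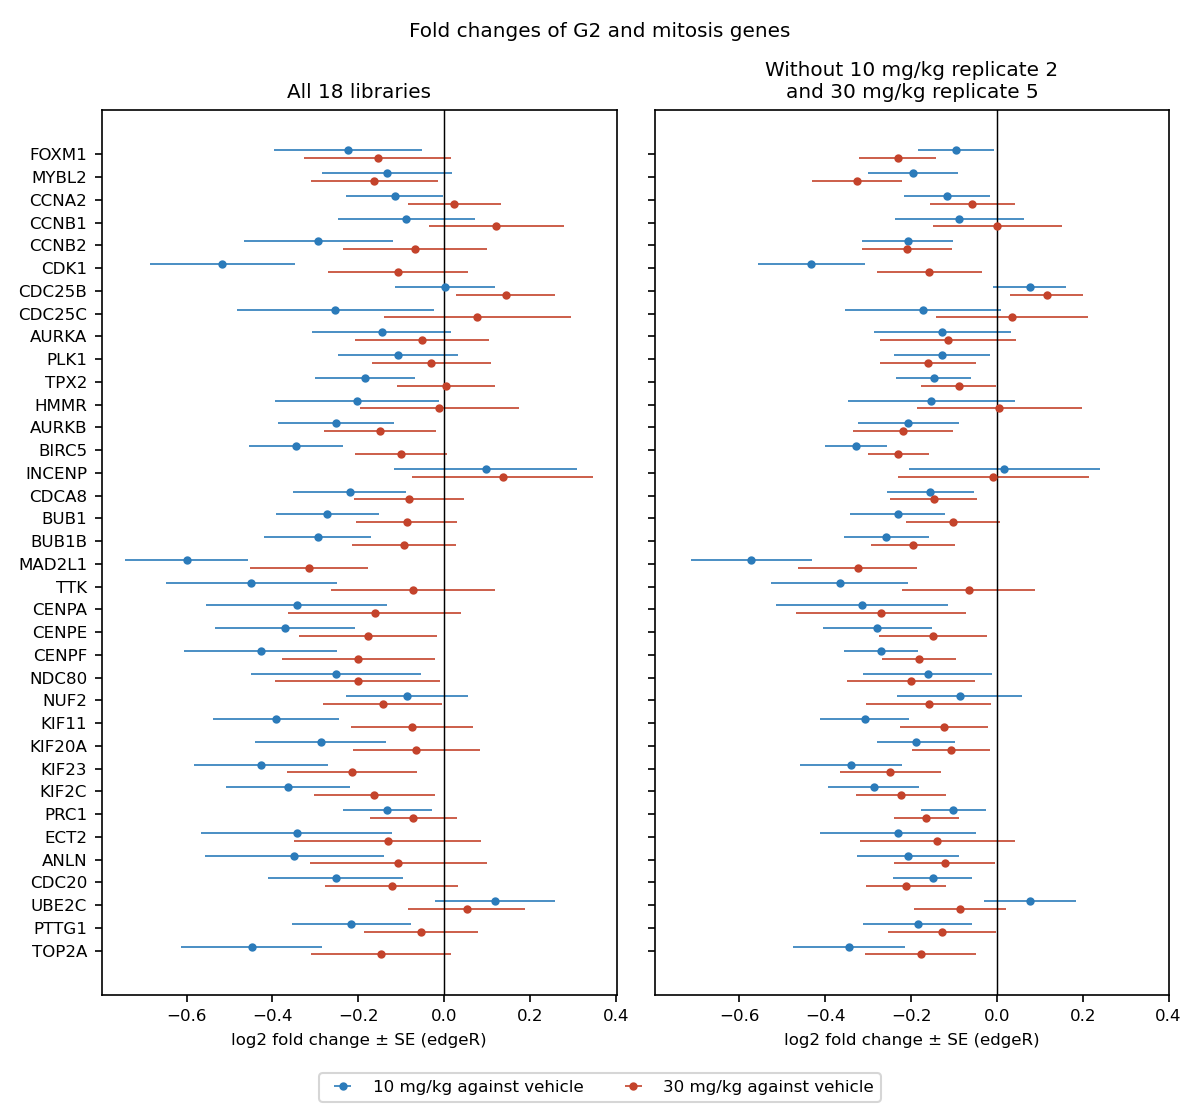
Log2 fold change of each gene at 10 mg/kg and at 30 mg/kg against vehicle, with bars of 1 SE from edgeR; the left panel uses all 18 libraries and the right panel leaves out 10 mg/kg replicate 2 and 30 mg/kg replicate 5. On the left 33 and 29 of 36 genes lie below 0. On the right the medians of the doses are -0.19 and -0.15, where the choice of omitted libraries itself brings the doses closer.

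Single libraries differed in the level of these genes. The summed level of the 36 genes was 3871 to 4265 CPM in the vehicle libraries, 3224 to 3752 CPM in 5 libraries at 10 mg/kg and 2118 CPM in 10 mg/kg replicate 2. At 30 mg/kg it was 3574 to 3692 CPM in 5 libraries and 4508 CPM in replicate 5. Apart from 30 mg/kg replicate 5, every treated library had a lower sum than every vehicle library. How often sums over other genes do so was not tested, and abundant genes weigh most in a sum. Gene by gene, with all libraries, 1 of the 36 (BIRC5) lay wholly below vehicle at 10 mg/kg, against 0.469% of all genes. At 30 mg/kg 0 did, against 0.476% of all genes. Between 23 and 32 of the 36 genes lay below the vehicle mean in each 10 mg/kg library, and 24 to 29 in each 30 mg/kg library except replicate 5, where 12 did. In the vehicle libraries themselves the number was 12 to 24. In CPM, 10 mg/kg replicate 2 was the lowest library of its group for 29 genes and the highest for 4 (MYBL2, PLK1, INCENP and UBE2C). On the deposited TPM scale it lay below its group mean for these 4 as well, for example at 91.3 TPM for PLK1, where the group mean was 121 TPM. 30 mg/kg replicate 5 was the highest of its group for 22 genes and the lowest for 0. These 2 libraries also stood at the ends of a measure of library composition, the slope of a library's log2 deviations on log2 transcript length, at 0.06 in 10 mg/kg replicate 2 and -0.06 in 30 mg/kg replicate 5. With that slope as a covariate, an alternative added after seeing the data, the median log2 fold changes were -0.23 at 10 mg/kg and -0.10 at 30 mg/kg against vehicle.

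**Figure D3:**
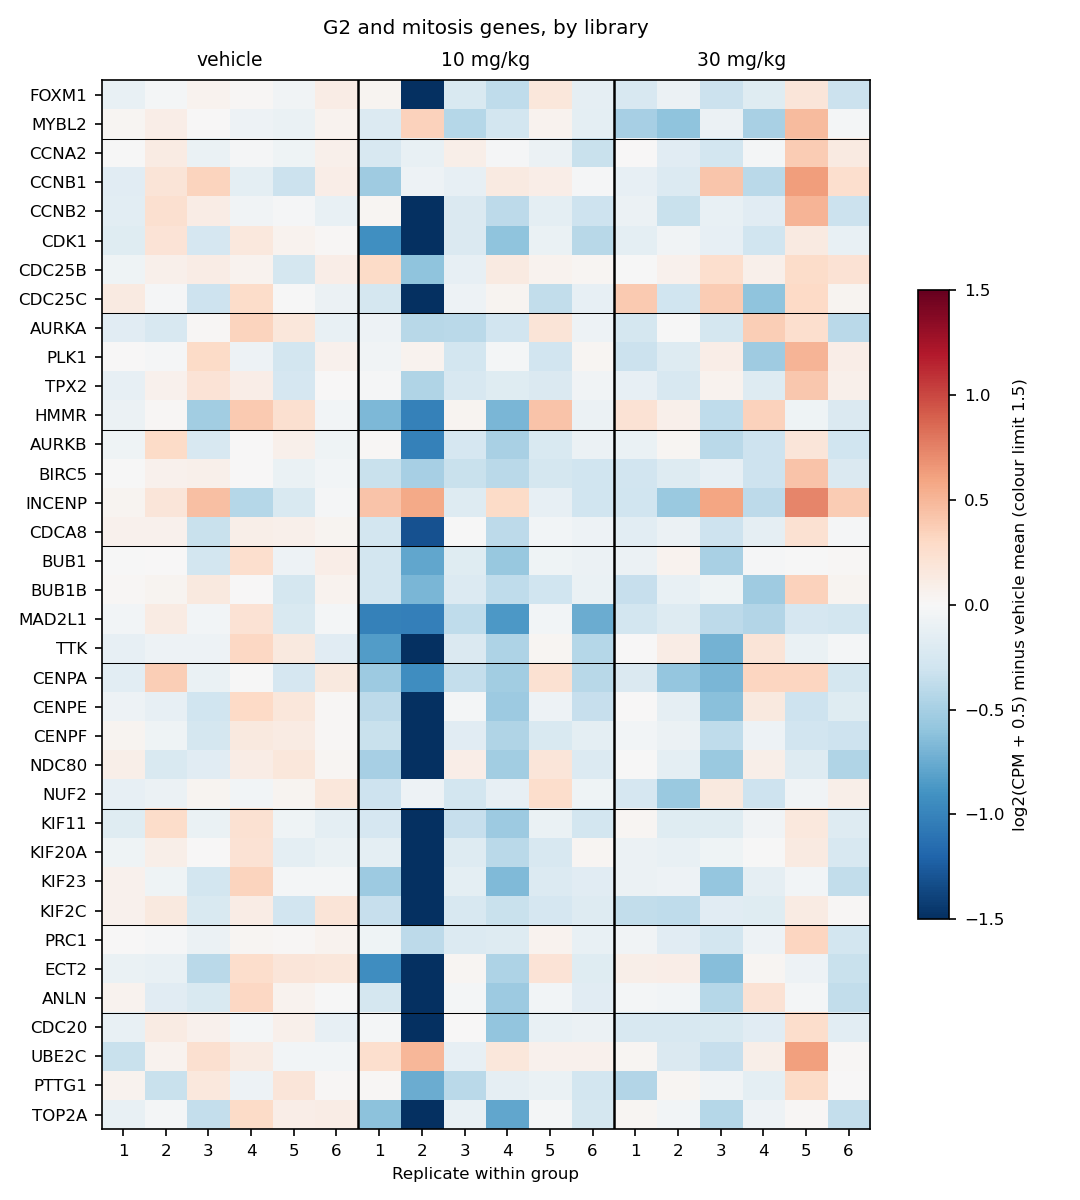
Heat map of log2(CPM + 0.5) minus the vehicle mean for the 36 genes (down the page, by role) in the 18 libraries (vehicle, 10 mg/kg, 30 mg/kg, left to right), with colours limited to 1.5 either way. Most genes are lower in the 10 mg/kg libraries and strongly so in replicate 2, while 30 mg/kg replicate 5 lies above the vehicle mean for most genes.

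FOXM1 and MYBL2, the regulators that drive this group of genes, were slightly lower at both doses, within their spread. FOXM1 was at 144, 155 and 169 CPM (lowest, median and highest library) in vehicle tumours, at 36.4, 137 and 174 CPM at 10 mg/kg and at 124, 134 and 176 CPM at 30 mg/kg. The low value of 36.4 CPM is 10 mg/kg replicate 2, and both treated groups overlapped vehicle. The log2 fold change was -0.22 ± 0.17 at 10 mg/kg (SE, edgeR adjusted p = 0.719) and -0.16 ± 0.17 at 30 mg/kg (edgeR adjusted p = 0.942). MYBL2 had -0.13 at 10 mg/kg and -0.16 at 30 mg/kg. Neither passed in any comparison.

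Cyclins, CDK1 and the CDC25 phosphatases, which bring cells into mitosis, had fold changes close to 0 or negative at 10 mg/kg and of both signs at 30 mg/kg. CDK1, the mitotic kinase itself, was at 46.8, 57.3 and 64.6 CPM in vehicle tumours, at 8.56, 39.1 and 52.2 CPM at 10 mg/kg and at 45.2, 51.4 and 61.6 CPM at 30 mg/kg. The 10 mg/kg group ran lower and overlapped vehicle at its upper end, and without replicate 2 its lowest library was at 29.2 CPM. Its log2 fold change was -0.52 ± 0.17 at 10 mg/kg (edgeR adjusted p = 0.272) and -0.11 ± 0.16 at 30 mg/kg (edgeR adjusted p = 0.971), and over all alternatives its adjusted p at 10 mg/kg stayed between 0.0524 and 0.585. CDC25B was at 201, 252 and 260 CPM in vehicle tumours, at 158, 248 and 296 CPM at 10 mg/kg and at 240.3, 267 and 293 CPM at 30 mg/kg, so that the groups overlapped widely. Its fold change was 0.00 ± 0.12 at 10 mg/kg (edgeR adjusted p = 1) and 0.14 ± 0.12 at 30 mg/kg (edgeR adjusted p = 0.899). The cyclins had small values: at 10 mg/kg CCNA2 had -0.12, CCNB1 -0.09 and CCNB2 -0.29, and at 30 mg/kg CCNA2 had 0.02, CCNB1 0.12 and CCNB2 -0.07. CDC25C, another CDK1-activating phosphatase, had -0.25 at 10 mg/kg and 0.08 at 30 mg/kg, and its count of 0 in 10 mg/kg replicate 2 allows up to 6.02 CPM at that depth (3 counts, counting error only).

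The mitotic kinases AURKA and PLK1, the spindle activator TPX2 and the spindle protein HMMR differed little from vehicle. PLK1, which acts from mitotic entry to cell division, was at 120.4, 146 and 179 CPM in vehicle tumours, at 119.8, 143 and 152 CPM at 10 mg/kg and at 101, 142 and 208 CPM at 30 mg/kg. Its medians were close, its groups overlapped, and the log2 fold change was -0.11 ± 0.14 at 10 mg/kg (edgeR adjusted p = 0.84) and -0.03 ± 0.14 at 30 mg/kg. TPX2, which activates Aurora A on the spindle, was at 195, 238 and 266 CPM in vehicle tumours, at 169, 202 and 228 CPM at 10 mg/kg and at 196, 226 and 307 CPM at 30 mg/kg. The 10 mg/kg group lay lower with overlap, at a log2 fold change of -0.18 ± 0.12 (edgeR adjusted p = 0.646), and the 30 mg/kg group at 0.00 ± 0.11. AURKA and HMMR had -0.15 and -0.20 at 10 mg/kg, and -0.05 and -0.01 at 30 mg/kg.

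In the chromosomal passenger complex, which corrects faulty attachments and guides cytokinesis, BIRC5 and INCENP had fold changes of opposite sign with all libraries. BIRC5, which encodes survivin, was at 119, 127 and 134 CPM in vehicle tumours, at 89.8, 101 and 105 CPM at 10 mg/kg and at 102, 110.0 and 170.4 CPM at 30 mg/kg. It was the 1 gene of the 36 whose 10 mg/kg libraries all lay below every vehicle library, a pattern seen in 0.469% of all genes tested. For 30 mg/kg 5 of 6 libraries lay below every vehicle library and replicate 5 lay above them all, so that 0 of the 36 genes were free of overlap at that dose (0.476% of all genes lower). The log2 fold change was -0.35 ± 0.11 at 10 mg/kg (edgeR adjusted p = 0.257), -0.10 ± 0.11 at 30 mg/kg (edgeR adjusted p = 0.942) and -0.22 ± 0.09 over both doses (edgeR adjusted p = 0.405). Omitting 10 mg/kg replicate 2 and 30 mg/kg replicate 5 was a choice made after seeing the data. Replicate 5 held the highest BIRC5 level at 30 mg/kg, so calls made without it are no independent support. With both omitted, BIRC5 passed the threshold at 10 mg/kg, at -0.33 ± 0.07 (edgeR adjusted p = 0.0192, range over alternatives 0.0192 to 0.524, 0.959% of all genes called). It also passed over both doses, at -0.28 ± 0.06 (edgeR adjusted p = 0.0105, range 0.0105 to 0.674, 2.44% of all genes called). Without 30 mg/kg replicate 5 alone BIRC5 passed over both doses, at -0.28 ± 0.07 (edgeR adjusted p = 0.0444). INCENP, the scaffold of the complex, was at 134, 181 and 245 CPM in vehicle tumours, at 146, 192 and 267 CPM at 10 mg/kg and at 123, 190.4 and 299 CPM at 30 mg/kg. Its spread was wide in every group, and its log2 fold change was 0.10 ± 0.21 at 10 mg/kg and 0.14 ± 0.21 at 30 mg/kg, or 0.02 and -0.01 with both libraries omitted. AURKB, the kinase of the complex, had -0.25 at 10 mg/kg and -0.15 at 30 mg/kg, and CDCA8, which encodes borealin, had -0.22 and -0.08.

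All 4 spindle checkpoint genes were lower at 10 mg/kg at an unadjusted p under 0.05 (4.08% of all genes tested), and MAD2L1 had the largest fold change of the 36. MAD2L1 encodes MAD2, the inhibitor that the checkpoint loads onto CDC20. It was at 37.5, 42.9 and 51.0 CPM in vehicle tumours, at 21.4, 25.0 and 42.7 CPM at 10 mg/kg and at 32.4, 36.2 and 38.3 CPM at 30 mg/kg. At each dose 5 of 6 libraries lay below every vehicle library. The exceptions were 10 mg/kg replicate 5 at 42.7 CPM and 30 mg/kg replicate 2 at 38.3 CPM. The share of all genes with 5 of 6 libraries below vehicle was not determined, so this pattern is only described. The log2 fold change was -0.60 ± 0.14 at 10 mg/kg (edgeR adjusted p = 0.0656), -0.32 ± 0.14 at 30 mg/kg (edgeR adjusted p = 0.539) and -0.46 ± 0.12 over both doses (edgeR adjusted p = 0.07). Without 10 mg/kg replicate 2 it fell at 10 mg/kg by the test, at -0.57 ± 0.14 (edgeR adjusted p = 0.0429), and over both doses, at -0.44 ± 0.11 (edgeR adjusted p = 0.0371). Without 10 mg/kg replicate 5, its highest library at that dose, it was at -0.76 ± 0.13 at 10 mg/kg (edgeR adjusted p = 0.00352) and -0.54 ± 0.10 over both doses (edgeR adjusted p = 0.00557). Leaving out the highest value lowers that group by construction, so these smaller p-values are no added support. The adjusted p of MAD2L1 ranged from 0.00352 to 0.244 at 10 mg/kg and from 0.00461 to 0.331 over both doses across alternatives, with 7 of 31 and 6 of 30 below the threshold. BUB1B, the checkpoint kinase-like protein BUBR1, was at 91.7, 113 and 122 CPM in vehicle tumours, at 68.4, 90.2 and 103 CPM at 10 mg/kg and at 76.3, 104 and 140.2 CPM at 30 mg/kg. Its groups overlapped, with a log2 fold change of -0.29 ± 0.12 at 10 mg/kg (edgeR adjusted p = 0.44) and -0.09 ± 0.12 at 30 mg/kg. BUB1 and TTK, the checkpoint kinases, had -0.27 and -0.45 at 10 mg/kg, and -0.09 and -0.07 at 30 mg/kg.

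**Figure D4:**
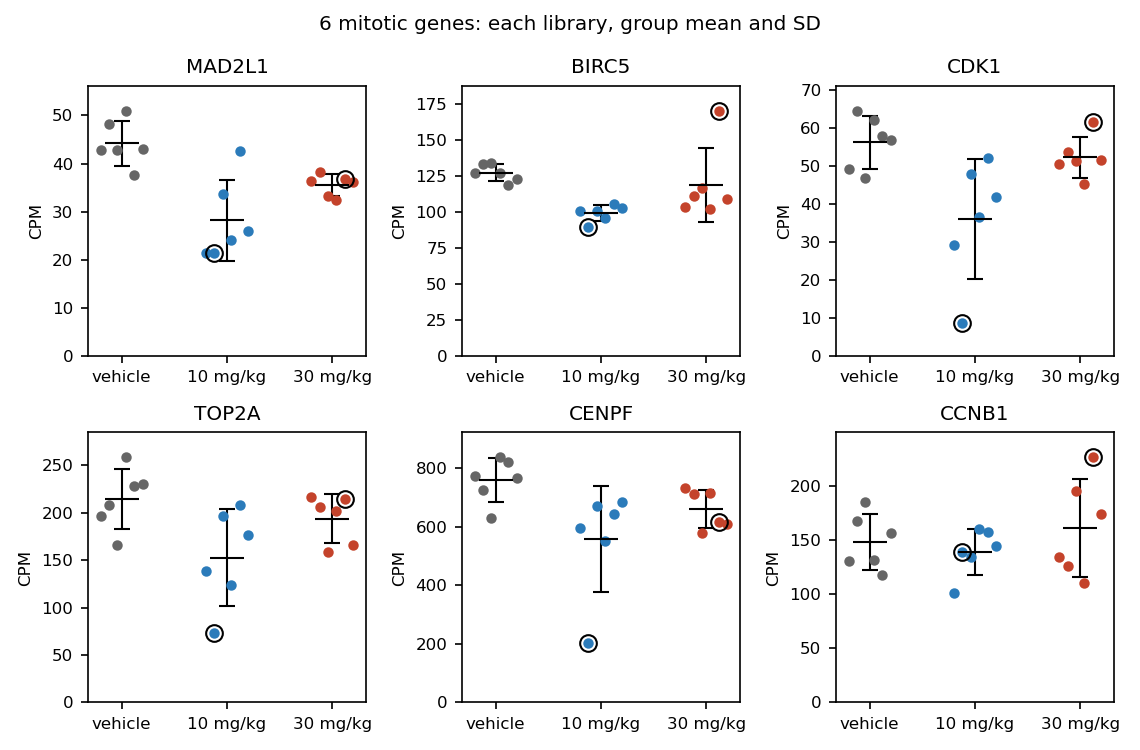
CPM of MAD2L1, BIRC5, CDK1, TOP2A, CENPF and CCNB1 in each library by group (vehicle, 10 mg/kg, 30 mg/kg), with the mean and SD over 6 libraries; rings mark 10 mg/kg replicate 2 and 30 mg/kg replicate 5. BIRC5 at 10 mg/kg lies wholly below vehicle, at 89.8 to 105 CPM against 119 to 134 CPM, while CCNB1 overlaps in all groups.

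The kinetochore and centromere genes were all lower at both doses in the fit, none past the threshold. CENPF, a large kinetochore protein, was at 629, 769 and 837 CPM in vehicle tumours, at 203, 619 and 683 CPM at 10 mg/kg and at 579, 663 and 733 CPM at 30 mg/kg. The 203 CPM is again 10 mg/kg replicate 2; the other 5 libraries at that dose lay between 551 and 683 CPM and overlapped vehicle. Its log2 fold change was -0.43 ± 0.18 at 10 mg/kg (edgeR adjusted p = 0.433) and -0.20 ± 0.18 at 30 mg/kg. The motor CENPE had -0.37, the centromeric histone CENPA -0.34, and the microtubule-binding NDC80 and NUF2 -0.25 and -0.09 at 10 mg/kg. The values at 30 mg/kg were -0.18 for CENPE, -0.16 for CENPA, -0.20 for NDC80 and -0.14 for NUF2.

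Mitotic kinesins, the motors that build and divide the spindle, were among the lower members at 10 mg/kg, with a median of -0.38 at 10 mg/kg and -0.12 at 30 mg/kg. KIF23, a motor of the central spindle, was at 74.8, 88.6 and 114 CPM in vehicle tumours, at 23.5, 70.2 and 81.8 CPM at 10 mg/kg and at 60.3, 83.6 and 87.9 CPM at 30 mg/kg. Its log2 fold change was -0.43 ± 0.16 at 10 mg/kg (edgeR adjusted p = 0.352), -0.21 ± 0.15 at 30 mg/kg and -0.32 ± 0.13 over both doses (edgeR adjusted p = 0.392). KIF11, which pushes spindle poles apart, had -0.39 at 10 mg/kg and -0.07 at 30 mg/kg, KIF2C, which shortens microtubules, -0.36 and -0.16, and KIF20A -0.29 and -0.06. Each of KIF11, KIF20A and KIF2C was at 17.1 CPM in 10 mg/kg replicate 2, its lowest value in any library. KIF23 in that library was at 23.5 CPM, and without it and 30 mg/kg replicate 5 the fold change of KIF23 at 10 mg/kg was -0.34 ± 0.12 (edgeR adjusted p = 0.23).

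The midzone and cytokinesis genes were lower in the fit at both doses, with wide errors. PRC1, which bundles midzone microtubules, was at 135, 145 and 149 CPM in vehicle tumours, at 109, 129 and 149 CPM at 10 mg/kg and at 118, 132 and 179.7 CPM at 30 mg/kg. Its log2 fold change was -0.13 ± 0.10 at 10 mg/kg and -0.07 ± 0.10 at 30 mg/kg. ANLN, which encodes the ring scaffold anillin, was at 135, 161 and 198 CPM in vehicle tumours, at 21.4, 137 and 156 CPM at 10 mg/kg and at 118, 155 and 185 CPM at 30 mg/kg. The 21.4 CPM in 10 mg/kg replicate 2 stood far under the rest of that group, and the log2 fold change was -0.35 ± 0.21 (edgeR adjusted p = 0.627). ECT2, which starts ring assembly, had -0.34 at 10 mg/kg and -0.13 at 30 mg/kg.

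Of the genes of anaphase and chromatid separation, TOP2A was lower at 10 mg/kg at an unadjusted p under 0.05 and UBE2C had the highest fold change of the 36 at that dose with all libraries. TOP2A, the topoisomerase that untangles sister chromatids, was at 166, 218 and 259 CPM in vehicle tumours, at 72.7, 157 and 208 CPM at 10 mg/kg and at 158, 204 and 216 CPM at 30 mg/kg. Its log2 fold change was -0.45 ± 0.16 at 10 mg/kg (edgeR adjusted p = 0.352), -0.15 ± 0.16 at 30 mg/kg and -0.30 ± 0.14 over both doses (edgeR adjusted p = 0.491). UBE2C, the ubiquitin-conjugating enzyme of the anaphase promoting complex, was at 48.1, 60.8 and 71.5 CPM in vehicle tumours, at 55.7, 65.6 and 85.6 CPM at 10 mg/kg and at 47.6, 61.6 and 93.4 CPM at 30 mg/kg. It had 0.12 ± 0.14 at 10 mg/kg (edgeR adjusted p = 0.819) and 0.05 ± 0.14 at 30 mg/kg, or 0.08 and -0.09 with both libraries omitted, and its highest 10 mg/kg value is that of replicate 2. CDC20, the activator that the checkpoint blocks, had -0.25 at 10 mg/kg and -0.12 at 30 mg/kg. Without 30 mg/kg replicate 5, the 30 mg/kg libraries of BIRC5 and of CDC20 lay below every vehicle library, a pattern then seen in 1.12% of all genes. The omitted library held the highest 30 mg/kg level of both genes. PTTG1, which encodes securin, had -0.22 and -0.05; its copy PTTG2 drew 33 summed counts in vehicle tumours beside 772 for PTTG1, so a small part of its reads may have been divided.

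The other genes of the mitotic programme had values close to those of the 36. Of 116 further genes in 5 lists, 104 were lower at 10 mg/kg, 86 at 30 mg/kg and 103 over both doses, with median log2 fold changes of -0.23, -0.12 and -0.18. At an unadjusted p under 0.05, 33, 12 and 27 of them were lower (4.08%, 3.72% and 4.6% of all genes) and 1, 2 and 2 higher, and edgeR called 0 in each of these 3 comparisons. Of the other spindle and cytokinesis genes 15 of 31 were lower at 10 mg/kg at that p (4.08% of all genes), with a median of -0.30. They included KIF15, a spindle motor (both doses -0.41, edgeR adjusted p = 0.104), and TACC3, which steadies spindle microtubules (-0.28, edgeR adjusted p = 0.146). Of the inner kinetochore and KMN network genes, 8 of 30 were lower at 10 mg/kg at that p, and over both doses SPC25 had -0.56 (edgeR adjusted p = 0.177) and SKA3 -0.35 (edgeR adjusted p = 0.225). In the condensin, cohesin and shugoshin list it was 6 of 20, with NCAPD3 at -0.29 (edgeR adjusted p = 0.217) and NCAPH at -0.25 (edgeR adjusted p = 0.28) over both doses, both condensin subunits.

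Of the anaphase promoting complex genes 2 of 17 were lower at 10 mg/kg at an unadjusted p under 0.05 (4.08% of all genes), where FBXO5, its inhibitor EMI1, had -0.49 (edgeR adjusted p = 0.278) and the subunit ANAPC1 -0.22 (edgeR adjusted p = 0.494) over both doses. Of the mitotic entry control genes, 2 of 18 were lower and 1 higher at 10 mg/kg at that p; over both doses RBBP4, a MuvB subunit, had -0.29 (edgeR adjusted p = 0.138) and PKMYT1, a kinase that inhibits CDK1, had -0.40 (edgeR adjusted p = 0.152). None of these named genes passed in edgeR with all 18 libraries. On the same libraries, limma-voom with sample weights called PKMYT1, TACC3, RBBP4, KIF15, NCAPD3 and SPC25 lower over both doses (4.24% of all genes called in either direction). DESeq2 called TACC3, RBBP4 and KIF15 (1.97% of all genes), and limma-voom called PKMYT1 (1.14% of all genes). With 10 mg/kg replicate 2 and 30 mg/kg replicate 5 both omitted, edgeR called 4 of the 116 lower over both doses, where it called 2.44% of all genes in either direction: PKMYT1 at -0.48 (edgeR adjusted p = 0.00412, range over alternatives 0.00246 to 0.471), TACC3 at -0.30 (adjusted p = 0.0194, range 0.0102 to 0.423), RBBP4 at -0.25 (adjusted p = 0.0372, range 0.00837 to 0.651) and KIF15 at -0.39 (adjusted p = 0.0419, range 0.0135 to 0.603). MKI67, the proliferation marker Ki-67, was at 1219.6 to 1656 CPM in vehicle tumours, 297 to 1344 CPM at 10 mg/kg and 824 to 1420 CPM at 30 mg/kg, with -0.42 at 10 mg/kg, -0.27 at 30 mg/kg and -0.34 over both doses (edgeR adjusted p = 0.621).

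With all 18 libraries, genes of G1 to S and replication, set beside the mitotic genes as the neighbouring phase, had larger negative values that differed less between doses. Of 30 such genes, 22 were lower at 10 mg/kg and 17 at 30 mg/kg at an unadjusted p under 0.05, against 12 and 1 of the 36 mitotic genes and 4.08% and 3.72% of all genes. Their median log2 fold changes were -0.37 at 10 mg/kg and -0.30 at 30 mg/kg, against -0.25 and -0.09. CDT1, which licenses replication origins, fell over both doses (-0.36 ± 0.09, edgeR adjusted p = 0.0499) and was at 59.9 to 89.9 CPM at 10 mg/kg and 66.1 to 88.5 CPM at 30 mg/kg, against 91.0 to 108 CPM in vehicle tumours. That call held in 11 of 30 alternatives, with adjusted p from 0.00312 to 0.383. With both libraries omitted, 16 of the 30 were called lower over both doses, against 2 of the 36 and 2.44% of all genes in either direction. Among the 36, 10 mg/kg replicate 2 was the lowest of its group for 29 genes and 30 mg/kg replicate 5 the highest for 22. The gap between doses in the 36 was smaller with both omitted, so no conclusion is drawn on how the lists differ between doses. The difference between the lists was not tested.

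**Figure D5:**
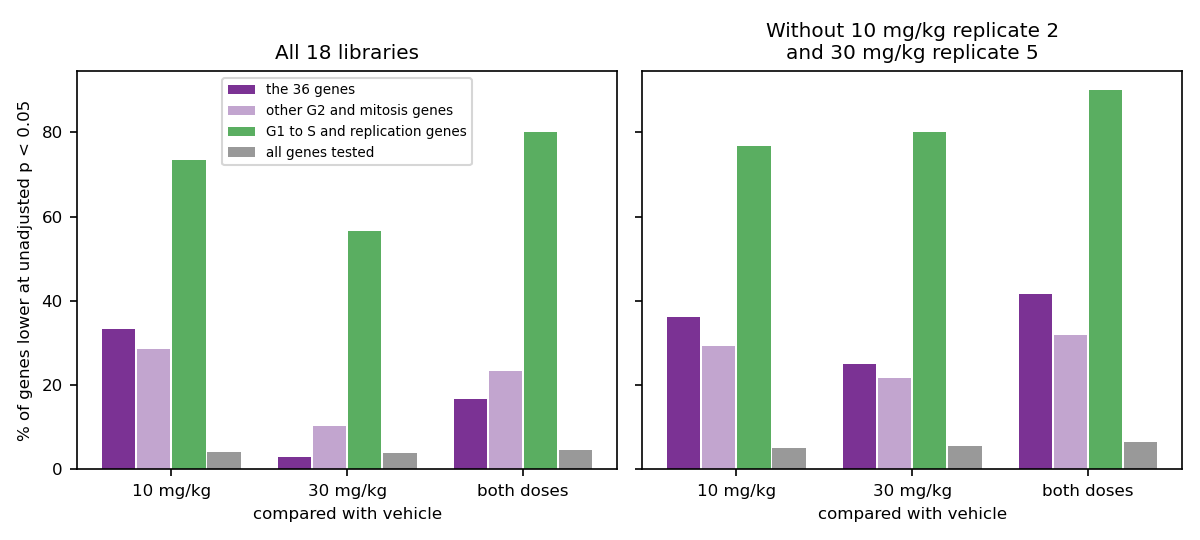
Percentage of genes lower at an unadjusted p under 0.05 in the 36 genes, the 116 other G2 and mitosis genes, the 30 G1 to S and replication genes and all genes tested, at 10 mg/kg, at 30 mg/kg and over both doses against vehicle; the left panel has all libraries, the right panel leaves out 10 mg/kg replicate 2 and 30 mg/kg replicate 5. The share in the 36 genes is above that of all genes at 10 mg/kg (12 of 36 against 4.08%) and near it at 30 mg/kg with all libraries (1 of 36 against 3.72%).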

How the data were processed

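The submitters' processing notes name STAR 2.4.2a and the builds hg19 and mm10, with no role given; the annotation and the way reads were divided between human and mouse were not given in the sources used here. Per the labels' protocols, libraries were made with a stranded pico-input total RNA kit from 5 ng of RNA. Each library has 1 deposited table in RSEM's format. Per the file headers, it holds expected counts (reads per gene as estimated by the authors' pipeline, unscaled) and TPM, which the authors scaled for transcript length. Expected counts were rounded, filtered by filterByExpr (14074 genes), scaled by TMM and fitted over all 18 libraries with edgeR 4.0.16 (robust quasi-likelihood, R 4.3.3); p-values were adjusted by Benjamini-Hochberg over all genes tested, with a threshold of 0.05. CPM are TMM-scaled. limma 3.58.1 and DESeq2 1.42.0 served as alternatives. The fit was also run on simulated counts, in which unchanged genes had the same proportions in every library and the changes were larger than those described here. That run is therefore no check for libraries that stand apart or for small fold changes. Symbols came from RefSeq for 25220 of 25343 gene IDs.

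The 36 genes, the other gene lists and the comparisons were chosen with earlier results of these data known. Within each role, the gene with the highest TPM, the one with the smallest p over both doses and any gene called with all libraries are given with levels; the others are given by fold change. Of the other lists, called genes are named, or else the 2 with the smallest p; genes called only with libraries left out were named after their values were seen. Depth ran from 433989 to 8538793 counts, which leaves members in the shallowest library with few counts.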

Additional observations from a re-analysis of the deposited data

Results flagged for a closer look

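Among 108 sets of 6 values (36 genes in 3 groups), 15 held a library far from the other 5 of its group. For independent sets chance gives about 1 in 20. The sets share the same 18 libraries and are not independent, so that rate is no measure for these 15. Of these, 7 were in 10 mg/kg replicate 2, the shallowest library: CCNB2 at 8.56 CPM, CDC25C at 0 CPM, CENPF at 203 CPM, ANLN at 21.4 CPM, and KIF11, KIF20A and KIF2C at 17.1 CPM each, all the lowest of their group. Another 5 were in 30 mg/kg replicate 5, all the highest of their group: CCNB2 at 67.9 CPM, BIRC5 at 170.4 CPM, PRC1 at 179.7 CPM, CDC20 at 134 CPM and UBE2C at 93.4 CPM. The other 3 were low values, of BUB1 at 60.3 CPM in 30 mg/kg replicate 3, of CDCA8 at 46.6 CPM in vehicle replicate 3 and of BUB1B at 91.7 CPM in vehicle replicate 5.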

How the results depend on the processing

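The number of the 36 genes called at 10 mg/kg against vehicle, 0 with edgeR and all libraries, was 1 in limma-voom, 1 in limma-voom with sample weights, 1 in DESeq2, 1 with the length slope as a covariate and 2 with 10 mg/kg replicate 2 and 30 mg/kg replicate 5 both omitted; leaving out 1 library at a time gave 0 to 1 (1 without 10 mg/kg replicate 2 or 5). Over both doses it was 1 in limma-voom, 2 with sample weights, 1 in DESeq2 and 2 with both libraries omitted, and 0 to 1 with 1 library left out (1 without 10 mg/kg replicate 2 or 5, or 30 mg/kg replicate 5). At 30 mg/kg against either group it was 0 under each alternative. The share of all genes called is not reported here for the length slope or for omitting single libraries other than 10 mg/kg replicate 2. The median log2 fold change kept its sign under each alternative, at -0.48 to -0.19 for 10 mg/kg, -0.15 to -0.05 for 30 mg/kg, 0.06 to 0.38 for 30 against 10 mg/kg and -0.33 to -0.15 over both doses. Leaving out 1 library at a time gave medians of -0.30 to -0.19, -0.15 to -0.05, 0.09 to 0.22 and -0.22 to -0.15 in the same order. Of 1968 values of single genes, 17 came to pass the threshold and 58 had the other sign, none of those called. With the replicate number as a block, 0 genes were called in each comparison; same-numbered libraries correlated at -0.28 to 0.22 and only 2 of 18 pairings were closest to their own number, so they were taken to share only a number. The fit on only the groups compared gives no value over both doses. The cause of these changes was not tested. In 10 mg/kg replicate 2 the 36 genes rest on 990 counts.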
